A study of Homo sapiens with 9 samples.

Results

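The interferon-stimulated genes studied here are 51 genes whose transcription is raised when cells sense interferon. They were picked by name from the rows of the deposited count table, and 50 of the 51 names matched 1 row each of 58884 genes in all. The exception, OAS1, has a row (ENSG00000089127) with a blank symbol, and its counts are given separately below. RNA-seq was carried out in MDA-MB-231, a human claudin-low breast cancer cell line, and in its sub-populations LM2 and BrM2, with 3 libraries each from cultures at different passages, which makes 9 libraries. Par is the parental line, LM2 is its lung metastatic variant and BrM2 its brain metastatic variant, both obtained by selection in vivo. All 3 lines derive from the same tumor and were grown as plain monolayer cultures in serum-containing medium, and no interferon, drug or engineered allele is named for any of them. Each sub-population is thus 1 selected derivative, with no second lung or brain line beside it, so that its replicates measure passages of that derivative only. Whether a lower count reflects fewer cells expressing a gene or less RNA per cell cannot be told apart in such bulk libraries.

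Interferons are secreted cytokines that bind receptors on the cell surface and activate Janus kinases. In the type I pathway, STAT2 joins another phosphorylated STAT protein and IRF9 to form a complex that binds the interferon-stimulated response element (ISRE) in promoters, while type II interferon acts mainly through the gamma-activated site (GAS). The induced genes code for sensors of foreign RNA, for enzymes and membrane proteins that block viruses, for the ubiquitin-like protein ISG15 with its conjugating enzymes, and for transcription factors that feed back on the pathway. Many carcinoma lines keep a low level of this program without added interferon.

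The libraries held 14371858 to 24511786 counts on genes, and 3 counts, taken as the floor, corresponded to 0.115 to 0.221 CPM. Levels are given as CPM, in which each count is divided by the normalized size of its library. A filter on low counts kept 13055 genes, among them 47 of the 50 matched genes. Of these 47, 44 passed the filter through libraries of every line, while MX2 and USP18 did not reach it in LM2 and RSAD2 reached it in Par alone, so that the inclusion of RSAD2 already presupposed its high level there. Claudin-low identity was checked on 13 markers. VIM, CD44, AXL and KRT18 were high in every library, while SNAI2 ranged from 20.9 to 57.8 CPM and ZEB1 from 18.2 to 139 CPM. Of 7 markers that should be low, CDH1, CLDN3, ESR1 and PGR had means of at most 1.2 CPM in each line. The other three were expressed, with means of 95.3, 5.84 and 20 CPM for CLDN4, 13.4, 8.31 and 15.7 CPM for CLDN7 and 7.17, 4.82 and 6.09 CPM for EPCAM in Par, LM2 and BrM2. The 7 epithelial and hormone receptor markers summed to 93.5 to 130 CPM in Par, 17.9 to 23.3 CPM in LM2 and 29.2 to 60.9 CPM in BrM2, mainly through CLDN4, and the part of this difference in the results below was not tested. The sum of 3 neural markers was 176 to 194 CPM in Par, 117 to 124 CPM in LM2 and 144 to 155 CPM in BrM2, mainly through MBP (168, 102 and 141 CPM on average), that of 3 endothelial markers 2.45 to 7.39 CPM, mainly through PECAM1, and that of 3 lung epithelial markers at most 0.158 CPM in any library. The neural sum was thus highest in Par, but it followed MBP. GFAP averaged 13.5, 13 and 7.08 CPM in Par, LM2 and BrM2, and SNAP25 0.892, 6.06 and 0.383 CPM, highest in LM2. The part of these markers in the results was not tested either.

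Promoter windows were available for 42 of the 51 genes, as 300 bases from RefSeq on GRCh38.p14 that start 250 bases before a transcript start. The ISRE core, written as GAAA, any 2 bases and GAAA, and read on both strands, was present in a window of 29 of these 42 genes (69.0%), against 1195 of 27305 genes in the whole table (4.38%). Counted by window, which includes alternative starts, the shares were 34 of 56 (60.7%) and 3.57%. The GAS core TTCNNNGAA, also read on both strands, was in 15 of 56 windows (26.8%) and in 7.66% of all windows. The following stretches of 30 bases show a site for genes whose expression is described below, 5′ to 3′ on the strand of the gene, with 1 ISRE core in capitals. Where the capitals begin with TTTC, the core lies on the opposite strand. For RSAD2, IFI27 and MX1 the site lies before a transcript start inside the gene. At the first position of the gene, the window of RSAD2 holds no match and that of MX1 a core that begins 11 bases after the start. IFI27 has no window there.
RSAD2: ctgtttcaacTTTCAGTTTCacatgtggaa
IFI27: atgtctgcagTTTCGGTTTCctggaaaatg
BST2: tcctttctggGAAACTGAAActgaaaacct
IFIT1: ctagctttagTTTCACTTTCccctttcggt
IFIH1: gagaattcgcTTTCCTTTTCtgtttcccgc
GBP1: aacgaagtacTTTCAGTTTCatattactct
PARP12: ccggggccgcTTTCGGTTTCgtttcccgcc
ISG15: catgcctcggGAAAGGGAAAccgaaactga
MX1: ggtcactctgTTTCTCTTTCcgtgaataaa
EPSTI1: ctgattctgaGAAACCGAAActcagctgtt
The stretches lie at chr2:6877622-6877651, chr14:94110618-94110647, chr19:17405741-17405770, chr10:89392497-89392526, chr2:162318824-162318853, chr1:89065316-89065345, chr7:140062942-140062971, chr1:1013374-1013403, chr21:41431844-41431873 and chr13:42992272-42992301 of GRCh38.p14, in the order of the lines, with BST2, IFIH1, GBP1, PARP12 and EPSTI1 on the minus strand. In BST2, IFIH1 and ISG15 the core in capitals is followed by a second one that overlaps it by 4 bases, and in IFI27 and IFIT1 a second one begins 13 bases further on. DTX3L and PARP9, which are transcribed away from each other, have 1 core in common, within the stretch at chr3:122564322-122564351, and the core itself begins 6 bases before the start of DTX3L and, read from the other side, 41 bases before that of PARP9. GBP2, OAS2, OASL, IFIT2, IRF7, TRIM22, USP18, MX2 and IFITM2 have no window in the table. Of the genes tested below, HERC6, STAT2, SAMD9L, XAF1, IFI16, IRF1, UBE2L6, DDX58, IFI35 and SP100 have a window but no match of the core.

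**Figure D1:**
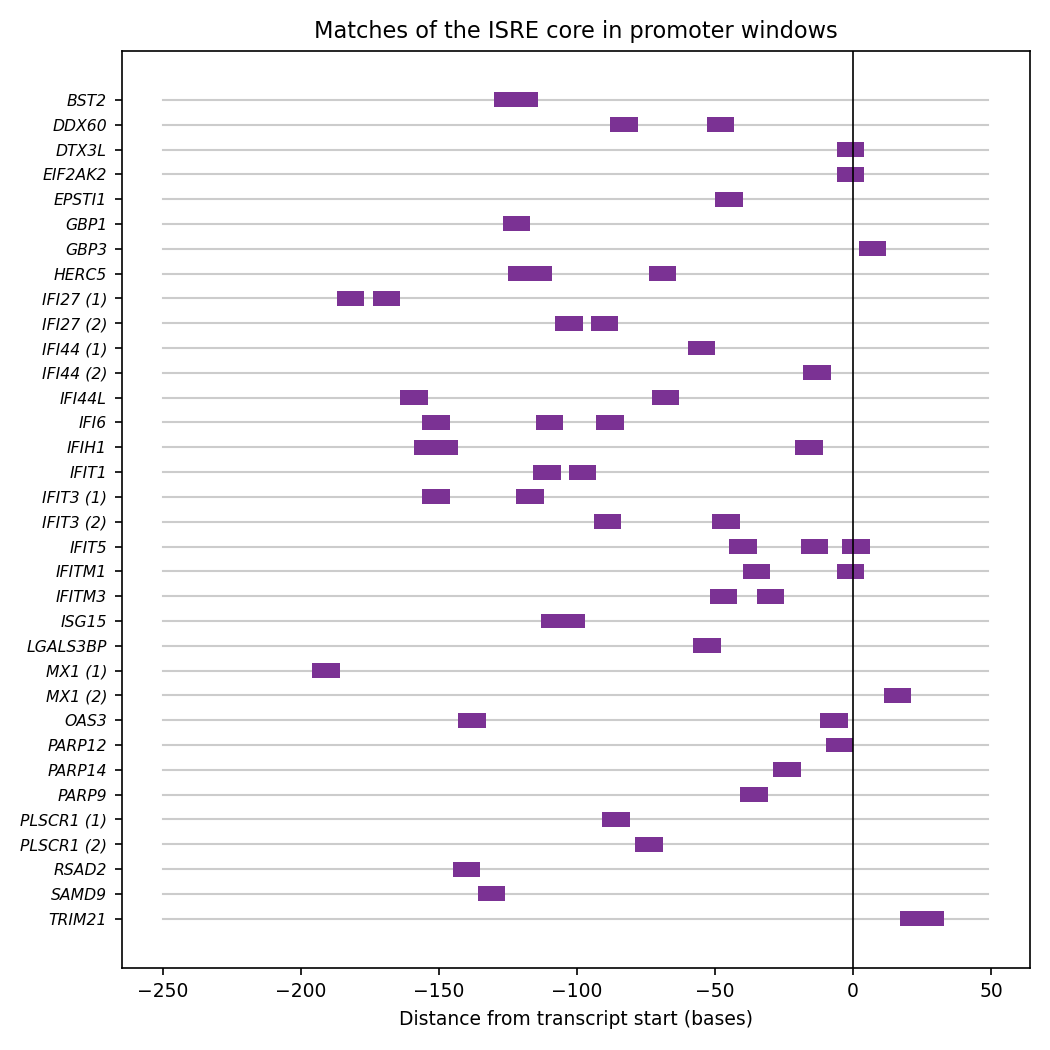
Position of the ISRE core in the 34 promoter windows that hold it, 1 row per window, with windows of alternative starts numbered. The horizontal axis gives the distance from the transcript start in bases, each gray line is a window of 300 bases and each purple block a match of 10 bases on either strand. Most matches lie before the start, and those of GBP3, TRIM21 and the second window of MX1 begin after it.

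The whole window is given for the 3 genes with the most matches among those past the threshold without the block described below, where ties were settled by the smaller adjusted p. They are IFIH1 (chr2:162318635-162318934, strand minus), the first window of IFI27 (chr14:94110565-94110864, strand plus) and IFIT1 (chr10:89392373-89392672, strand plus). Capitals mark ISRE cores on either strand, and overlapping cores run together.
IFIH1: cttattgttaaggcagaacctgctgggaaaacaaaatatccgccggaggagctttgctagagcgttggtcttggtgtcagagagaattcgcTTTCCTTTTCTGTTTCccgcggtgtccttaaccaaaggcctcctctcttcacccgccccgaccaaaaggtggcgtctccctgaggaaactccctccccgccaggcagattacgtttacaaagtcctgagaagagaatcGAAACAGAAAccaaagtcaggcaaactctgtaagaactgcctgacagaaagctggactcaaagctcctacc
IFI27: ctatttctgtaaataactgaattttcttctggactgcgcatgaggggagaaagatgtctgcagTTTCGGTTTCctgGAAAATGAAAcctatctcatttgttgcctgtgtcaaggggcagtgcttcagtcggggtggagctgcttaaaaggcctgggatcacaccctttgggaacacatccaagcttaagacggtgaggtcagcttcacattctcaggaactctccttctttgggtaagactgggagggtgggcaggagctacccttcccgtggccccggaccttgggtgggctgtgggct
IFIT1: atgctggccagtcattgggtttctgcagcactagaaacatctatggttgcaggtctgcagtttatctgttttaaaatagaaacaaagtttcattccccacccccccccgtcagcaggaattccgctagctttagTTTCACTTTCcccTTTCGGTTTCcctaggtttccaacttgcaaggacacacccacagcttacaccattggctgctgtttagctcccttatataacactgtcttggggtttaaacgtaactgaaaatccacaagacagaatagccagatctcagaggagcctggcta
The window of IFIH1 has 3 cores, 2 of which overlap, and those of IFI27 and IFIT1 have 2 each. A match of these letters describes the window and was not taken as a bound site. Among tested genes with a window, the median log2 fold change from Par to LM2 was -0.44 for the 28 with a core and -0.30 for the 10 without one, and from Par to BrM2 -0.83 and -0.69. The ranges of both groups overlapped in both comparisons.

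Among the interferon-stimulated genes, IFI27, GBP2, BST2, IFIT1 and OAS2 were lower in both metastatic sub-populations than in Par, and so was RSAD2, which entered the test through Par alone. The call of OAS2 in LM2 was kept in only 7 of 21 alternative settings. In LM2 vs Par, 7 of 47 genes were lower with an adjusted p under 0.05 in the quasi-likelihood test of edgeR, adjusted over all tested genes by the Benjamini-Hochberg method, and none was higher. Without RSAD2 this was 6 of 46. Of all tested genes, 4.52% were lower and 4.17% higher, or 8.69% in either direction. At an unadjusted p under 0.05, 1 gene, EPSTI1, was higher (9.47% of all tested genes), and DESeq2 called none higher in either comparison. In BrM2 vs Par, 10 of 47 were lower (9 of 46 without RSAD2) and none higher, against a background of 7.02% and 6.25%, or 13.3% in either direction, and none was higher at an unadjusted p under 0.05 either (12% of all tested genes). IFIT1, OAS2, GBP2, BST2, RSAD2 and IFI27 passed in both comparisons, PARP12 only against Par in LM2, and IFIH1, STAT2, GBP1 and HERC6 only in BrM2. Values in brackets after a log2 fold change are its standard error (SE) and adjusted p. The 2 comparisons share the Par libraries, so that a high value in Par enters both. The share of all tested genes called in both was not computed, so this overlap was not read as a result. Of the 47 genes, 36 (76.6%) had a log2 fold change below 0 in LM2 and 37 (78.7%) in BrM2, where 48.6% and 51.5% of all tested genes did. The median log2 fold change of the 47 genes was -0.46 in LM2 (0.01 over all tested genes) and -0.76 in BrM2 (-0.02 over all), or -0.44 and -0.72 without RSAD2.

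Libraries of the same replicate number deviated together, most of all those of replicate 1, which the model above leaves in its error. Those of replicates 2 and 3 also did so across numbers, so that pairing by number is not shown for them. With the replicate number added to the model as a block, 23 genes were lower and 1 higher in LM2 vs Par, and 28 were lower and 1 higher in BrM2 vs Par. The background was also larger, at 19.1% lower and 15.5% higher in LM2 (34.5% in either direction) and 23.2% lower and 19.5% higher in BrM2 (42.7%). In this model 18 genes were lower in both sub-populations, IFIT5, MX1, MX2, ISG15 and TRIM22 in LM2 only, and 10 in BrM2 only, while 14 were lower in neither. Here too the share of all tested genes lower in both was not computed, and the overlap was not read as a result. Compared within replicate numbers, 30 of the 47 genes were below Par in all 3 numbers in LM2, and likewise 30 in BrM2, where 32.4% and 33.8% of all tested genes were. Within replicates 1, 2 and 3 the median difference from Par was -0.64, -0.33 and -0.57 on the log2 scale in LM2 and -0.92, -0.47 and -0.65 in BrM2, while the medians of all tested genes lay between -0.09 and 0.01. Every LM2 library lay below every Par library for 15 genes (13.4% of all tested genes) and above for 1 (11.8%). For BrM2 these numbers were 19 (16.1%) and 0 (15.2%).

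**Figure D2:**
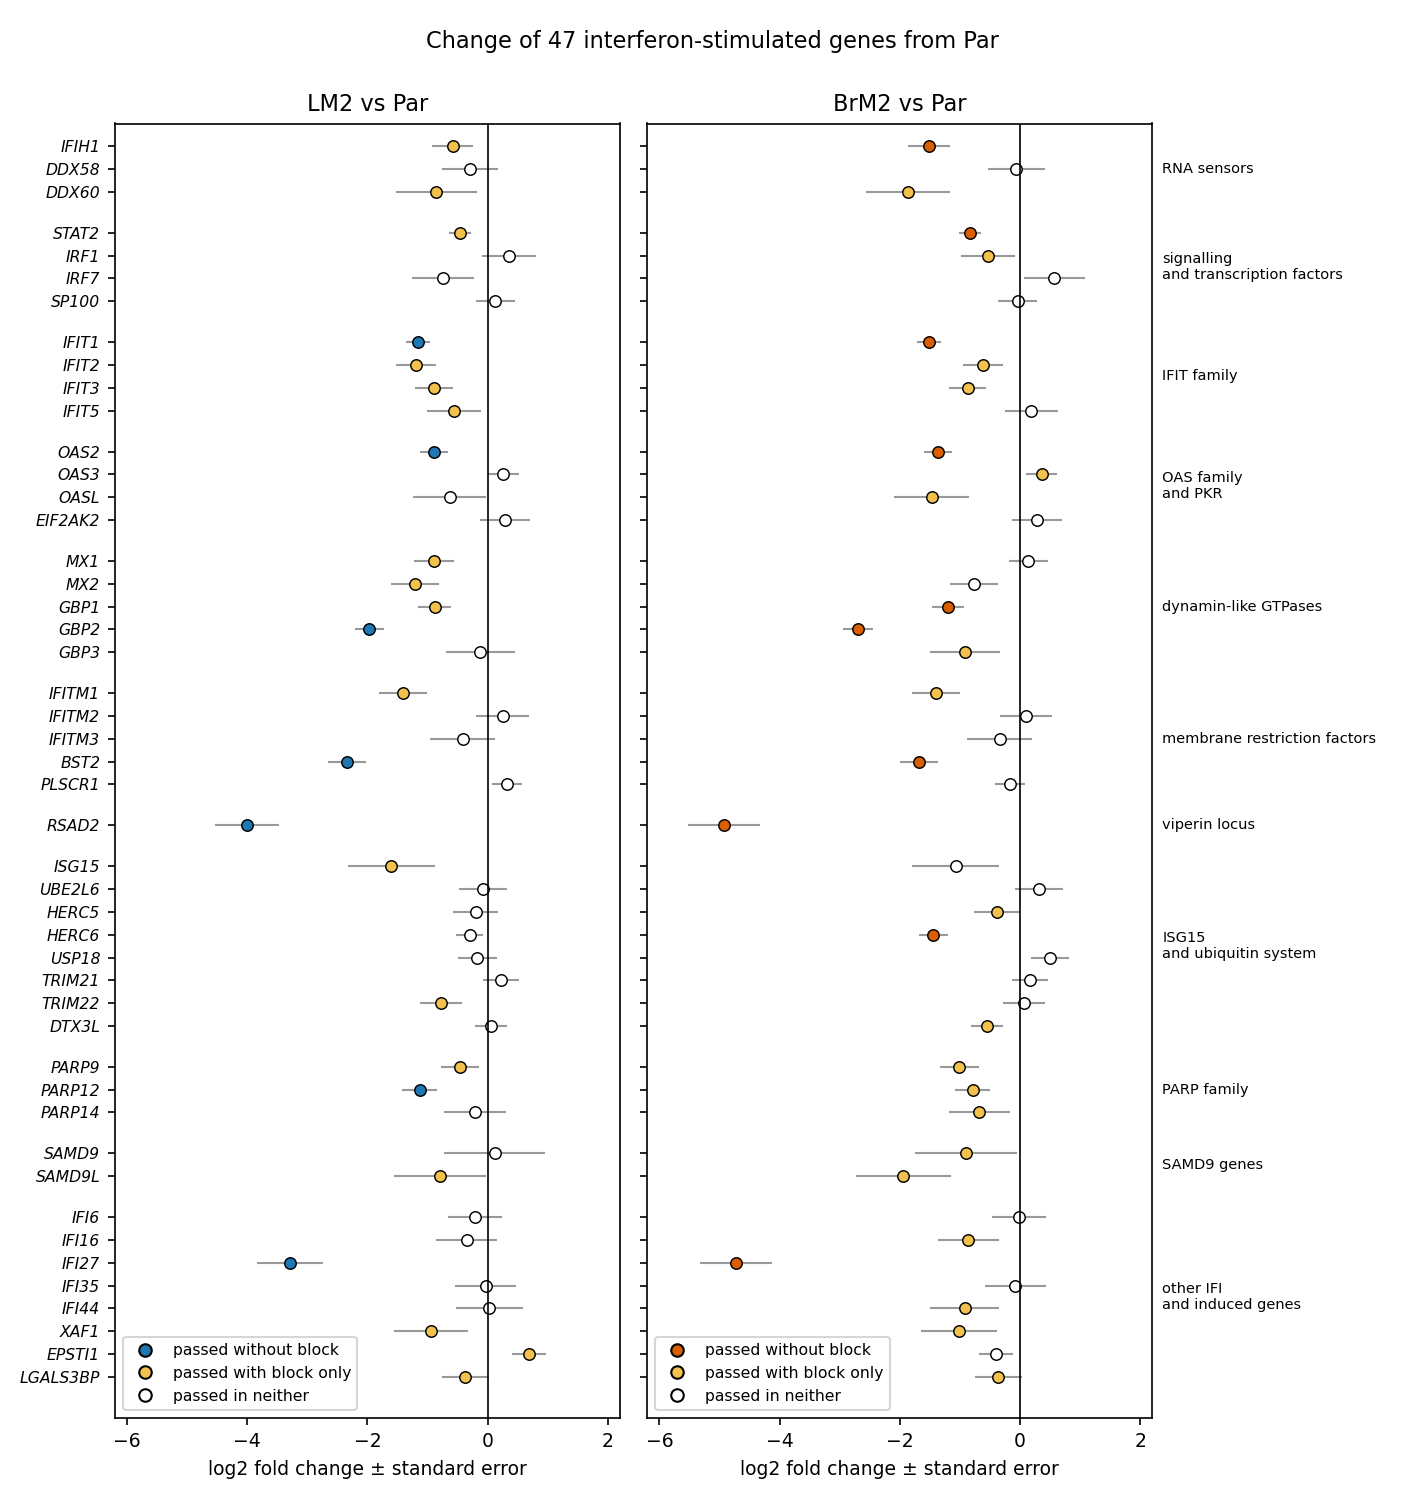
Log2 fold change from Par of the 47 tested genes, grouped by role, in LM2 (left) and BrM2 (right), with bars for the standard error of the model without the block. Fill shows whether a gene passed an adjusted p of 0.05 without the block, only with it, or in neither model. RSAD2 and IFI27 lie farthest to the left in both panels, and the median of the genes was -0.46 in LM2 and -0.76 in BrM2.

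Levels of different genes were compared per length of exon. In Par, LGALS3BP, a secreted glycoprotein, was highest with an RPKM of 136, followed by BST2 with 102 and IFITM3 with 82. MX2 was lowest of the 47 with 0.244. BST2, also called tetherin, holds budding viruses at the membrane, and it was the only one of these to pass the threshold without the block. The genes that fell thus included abundant ones (BST2), ones of middle rank (IFIT1, IFI27) and scarce ones (RSAD2, rank 44 of 47).

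**Figure D3:**
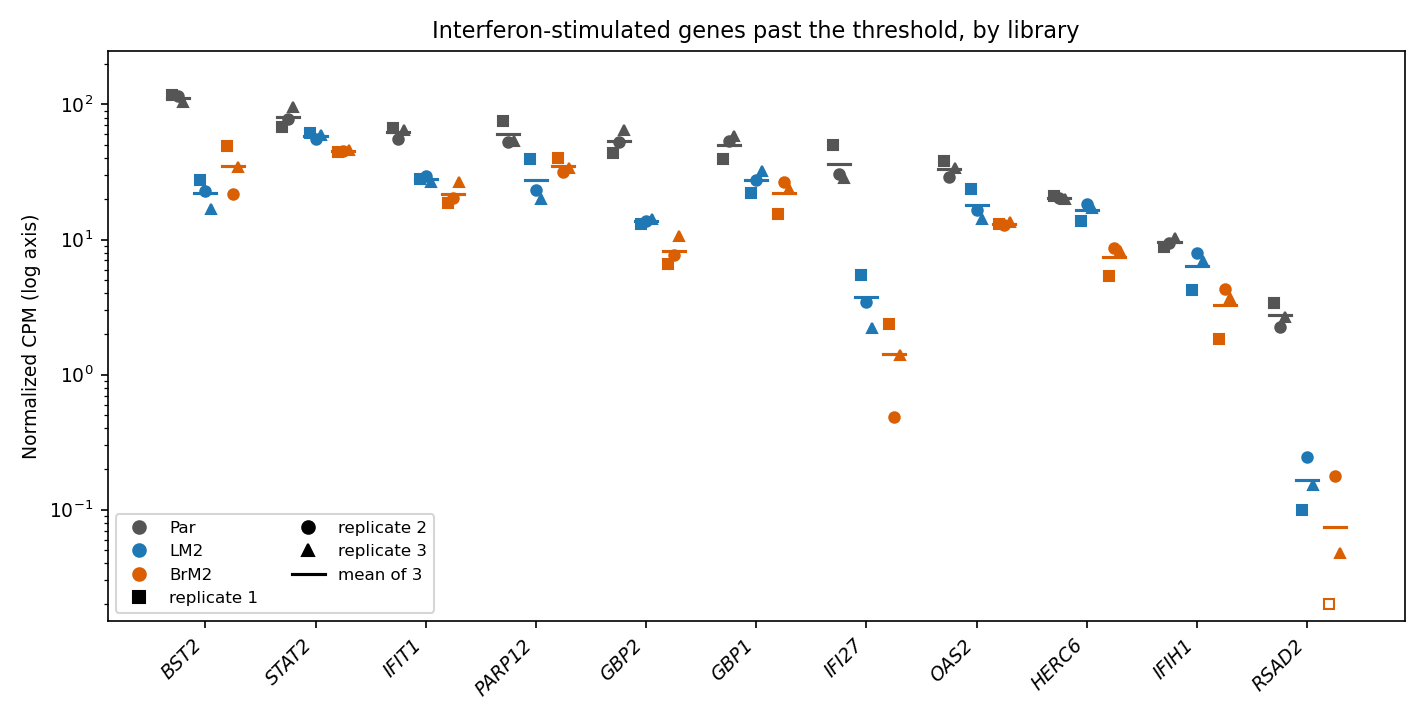
Normalized CPM on a log axis of the 11 genes past the threshold against Par without the block, with 1 symbol per library, shaped by replicate number, and a line for the mean of 3. The open square is the BrM2 library with 0 counts of RSAD2, drawn at the bottom of the axis. All LM2 and BrM2 symbols lie below the Par symbols of the same gene, also for the genes that passed in only 1 of the comparisons.

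Viperin (RSAD2) is a radical SAM enzyme that makes a chain-terminating nucleotide against viral polymerases. RSAD2 lies on chromosome 2 from 6865885 to 6898239 of GRCh38.p14, as do all positions below. It had 65, 47 and 68 counts in Par, 2, 6 and 4 in LM2 and 0, 4 and 1 in BrM2. All LM2 and BrM2 libraries were far below Par, and 1 BrM2 library had none, so that the fold rests on few counts. The log2 fold change was -4.0 (SE 0.53, adjusted p = 0.0019) in LM2 and -4.93 (SE 0.60, adjusted p = 0.00086) in BrM2 in edgeR. Because RSAD2 reached the filter in Par alone, a difference from Par was favored by its inclusion, and these p-values were not read as support. In the fit without a filter, which did not select it that way, the log2 fold change was -4.0 (adjusted p = 1.8e-06) and -4.93 (adjusted p = 2.9e-07) in edgeR. CMPK2, the mitochondrial nucleotide kinase gene next to it on the opposite strand, failed the filter, with 28, 14 and 10 counts in Par, 2, 4 and 4 in LM2 and 0, 1 and 2 in BrM2. Its libraries did not overlap between Par and either sub-population, but with so few counts no test was made. CMPK2 overlaps RSAD2 on the opposite strand by 351 exon bases, so that its counts are uncertain to that extent.

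IFI27, which codes for a mitochondrial protein and is among the most strongly induced genes of the response, lies on chromosome 14 from 94105894 to 94116690. It stood at 50.3, 30.7 and 28.4 CPM in the Par libraries, 5.51, 3.47 and 2.22 CPM in LM2 and 2.36, 0.486 and 1.39 CPM in BrM2. All Par libraries were above all others, and BrM2 was lowest in each replicate number. In edgeR the log2 fold change was -3.29 (SE 0.55, adjusted p = 0.0061) in LM2 and -4.73 (SE 0.60, adjusted p = 0.0011) in BrM2. Other genes of the mixed group moved less. XAF1, which promotes apoptosis, fell with the block by 0.93 (SE 0.25, adjusted p = 0.014) in LM2 and by 1.02 (SE 0.25, adjusted p = 0.0082) in BrM2 in edgeR, and LGALS3BP by 0.43 (SE 0.13, adjusted p = 0.028) and 0.42 (SE 0.13, adjusted p = 0.026). IFI16, a sensor of DNA, and IFI44 passed with the block in BrM2 only, with log2 fold changes of -0.92 (SE 0.16, adjusted p = 0.001) and -1.10 (SE 0.26, adjusted p = 0.0067). IFI6 and IFI35 passed in neither model, with log2 fold changes between -0.21 and -0.02 without the block. IFI6 shares 16.4% of its 50-base stretches with LINC02574. IFI44L failed the filter, with 10, 44 and 39 counts in Par, 3, 19 and 41 in LM2 and 3, 14 and 11 in BrM2, and its libraries overlapped.

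EPSTI1, a gene first described in breast epithelium grown with stroma, passed as higher in LM2, with the block only. It stood at 3.15, 4.31 and 5.38 CPM in the Par libraries, 6.71, 8.65 and 5.4 CPM in LM2 and 2.58, 3.71 and 3.4 CPM in BrM2. All LM2 libraries were above the Par libraries, the lowest by a small margin (5.40 against 5.38 CPM), and BrM2 overlapped Par. Its change from Par to LM2 was 0.69 (SE 0.29, adjusted p = 0.21) without and 0.69 (SE 0.22, adjusted p = 0.035) with the block in edgeR.

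The IFIT proteins bind viral RNA and halt its translation, and their genes lie side by side on chromosome 10. IFIT1 (chromosome 10 from 89392623 to 89406487) stood at 67.4, 55.3 and 64.2 CPM in the Par libraries, 28.3, 29.5 and 26.6 CPM in LM2 and 18.7, 20.3 and 26.6 CPM in BrM2. Both sub-populations lay below Par with no overlap. The log2 fold change of IFIT1 was -1.15 (SE 0.20, adjusted p = 0.007) in LM2 and -1.51 (SE 0.20, adjusted p = 0.0013) in BrM2 in edgeR, a fall of 2.21-fold and 2.85-fold. IFIT2 and IFIT3 were also below Par in every library of both sub-populations, but passed only with the block. IFIT2 changed by -1.24 (SE 0.17, adjusted p = 0.00023) in LM2 and -0.68 (SE 0.16, adjusted p = 0.0067) in BrM2, and IFIT3 by -0.94 (SE 0.15, adjusted p = 0.00093) and -0.93 (SE 0.15, adjusted p = 0.00069), in edgeR on the log2 scale. IFIT2 shares 8.9% of its 50-base stretches with other counted genes, and both overlap LIPA on the opposite strand, so that their counts are uncertain to that extent. IFIT5, which binds cellular RNA as well, fell in LM2 with the block by 0.64 (SE 0.19, adjusted p = 0.025), whereas in BrM2 its log2 fold change was 0.08 with an adjusted p of 0.78 in edgeR. With the block, 4 of the 4 IFIT genes were lower in LM2 and 3 of 4 in BrM2, where 19.1% and 23.2% of all tested genes were.

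The OAS enzymes make an oligonucleotide that switches on RNase L, and PKR (EIF2AK2) arrests translation on double-stranded RNA. OAS2 (chromosome 12 from 112978519 to 113011723) stood at 37.9, 29.2 and 33.6 CPM in the Par libraries, 23.7, 16.6 and 14.1 CPM in LM2 and 13.1, 12.8 and 13.4 CPM in BrM2. The 3 lines did not overlap, with Par highest and BrM2 lowest. Its log2 fold change was -0.89 (SE 0.23, adjusted p = 0.047) in LM2 and -1.36 (SE 0.23, adjusted p = 0.0053) in BrM2 in edgeR. The call in LM2 was lost without any 1 library except LM2 replicate 1, over which the log2 fold change ran from -1.13 to -0.74, and the call in BrM2 was kept without each of the 9. Relative log expression factors, the other filters and the fit of LM2 and Par alone also lost the LM2 call. It was kept in 7 of 21 alternative settings, among them DESeq2 and the block. OASL, a family member without that enzyme activity, passed only in BrM2 with the block, by -1.31 (SE 0.20, adjusted p = 0.00041) in edgeR. OAS3 stood apart from OAS2, which lies next to it on chromosome 12. It stood at 59.6, 43.8 and 37.6 CPM in the Par libraries, 75.4, 45.1 and 48.7 CPM in LM2 and 66, 63.1 and 51.8 CPM in BrM2, so that the lines overlapped. OAS3 was above Par in all 3 replicate numbers in both sub-populations, and passed with the block in BrM2 with a log2 fold change of 0.39 (SE 0.14, adjusted p = 0.044) in edgeR, not in LM2 (0.26, adjusted p = 0.17). PKR passed in neither model, with 0.29 in LM2 and 0.28 in BrM2 on the log2 scale without the block. Its gene overlaps GPATCH11 on the opposite strand by 35 exon bases. OAS1, outside the name match, had 35, 19 and 23 counts in Par, 22, 28 and 13 in LM2 and 39, 31 and 36 in BrM2, with LM2 and BrM2 each overlapping Par.

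**Figure D4:**
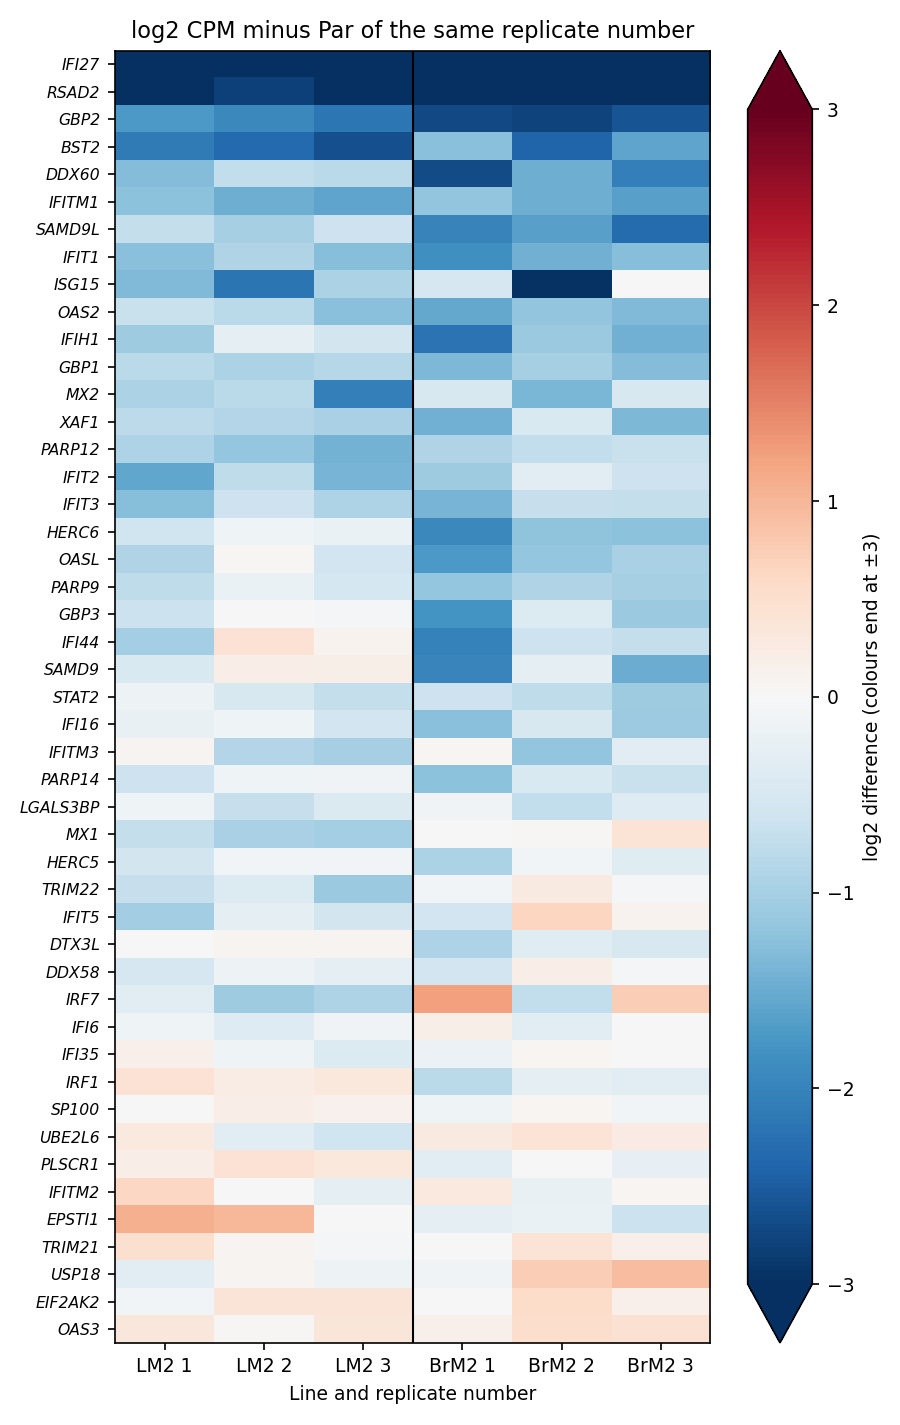
Log2 difference of each gene from the Par library of the same replicate number, 1 row per gene in order of the mean difference and 1 column per LM2 or BrM2 library. Blue is below and red above Par, and colors end at 3 on the log2 scale. The upper rows are blue in every column, 30 of the 47 genes are below Par in all LM2 columns and 30 in all BrM2 columns, and the lowest row, OAS3, is above Par in every column.

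Among the dynamin-like GTPases, which assemble on membranes and on pathogens, GBP2 fell most. GBP2 (chromosome 1 from 89106132 to 89126114) stood at 43.6, 53 and 64.2 CPM in the Par libraries, 13.1, 13.7 and 14.2 CPM in LM2 and 6.57, 7.64 and 10.6 CPM in BrM2. The lines did not overlap and were ordered as for OAS2. The log2 fold change of GBP2 was -1.97 (SE 0.24, adjusted p = 0.0013) in LM2 and -2.69 (SE 0.25, adjusted p = 0.00024) in BrM2 in edgeR, or 3.91-fold and 6.46-fold lower. GBP1 stood at 39.3, 53.7 and 58.6 CPM in the Par libraries, 22.2, 27.8 and 32.3 CPM in LM2 and 15.4, 26.9 and 23.5 CPM in BrM2, and both sub-populations were below Par without overlap. GBP1 fell in BrM2 by 1.20 (SE 0.27, adjusted p = 0.019) on the log2 scale, while in LM2 the value was -0.88 (SE 0.27, adjusted p = 0.085) without the block and -0.88 (SE 0.13, adjusted p = 5e-04) with it, in edgeR. Leaving out Par replicate 2, Par replicate 3 or BrM2 replicate 3 ended the BrM2 call, with log2 fold changes from -1.37 to -1.0 over all 9 omissions. GBP3, its close neighbor on chromosome 1, passed only in BrM2 with the block, by -1.08 (SE 0.21, adjusted p = 0.0021) in edgeR. From 4.8% to 8.8% of the 50-base stretches of GBP1, GBP2 and GBP3 occur in another counted gene, among them each other.

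The Mx GTPases trap viral nucleocapsids. MX1 stood at 15.5, 11.2 and 9.12 CPM in the Par libraries, 9.34, 5.63 and 4.44 CPM in LM2 and 15.7, 11.6 and 12.2 CPM in BrM2. LM2 was lower than BrM2 in every library, while Par overlapped both. With the block MX1 fell in LM2 vs Par by 0.91 (SE 0.17, adjusted p = 0.002), and in BrM2 its log2 fold change was 0.17 (adjusted p = 0.44), in edgeR. MX2, the neighbor of MX1 on chromosome 21, had few counts, 19 to 85 per library. It was below Par in all libraries of both sub-populations, and passed only in LM2 with the block, by -1.25 (SE 0.34, adjusted p = 0.016) in edgeR, where the value in BrM2 was -0.77 (adjusted p = 0.087). MX1 overlaps TMPRSS2 on the opposite strand by 562 exon bases.

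Of 5 membrane proteins of the response, BST2 fell in both sub-populations without the block and IFITM1 with it. BST2 (chromosome 19 from 17402939 to 17405630) stood at 118, 116 and 104 CPM in the Par libraries, 27.4, 22.8 and 16.7 CPM in LM2 and 49.2, 21.9 and 34.4 CPM in BrM2. Par was above all other libraries, and LM2 and BrM2 overlapped. Its log2 fold change was -2.34 (SE 0.32, adjusted p = 0.0022) in LM2 and -1.68 (SE 0.31, adjusted p = 0.0075) in BrM2 in edgeR, 5.06-fold and 3.21-fold lower. Of the IFITM genes, which make membranes resist viral fusion, IFITM1 was lower in all libraries of both sub-populations and passed with the block, by -1.44 (SE 0.15, adjusted p = 4.7e-05) in LM2 and -1.44 (SE 0.15, adjusted p = 3.7e-05) in BrM2 in edgeR. IFITM2 and IFITM3 did not pass in either model, with log2 fold changes between -0.41 and 0.25 without the block. The 3 genes share 15.4% to 20.7% of their 50-base stretches, mostly with one another, and their counts may be split unevenly between them. IFITM1 also overlaps ENSG00000254910 on the opposite strand by 176 exon bases. PLSCR1, a phospholipid scramblase, passed in neither comparison with Par, and its log2 fold change was 0.33 in LM2 and -0.17 in BrM2 without the block.

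ISG15 is a ubiquitin-like protein that UBE2L6 and HERC5 attach to other proteins and USP18 removes. ISG15 stood at 42, 43.1 and 10.6 CPM in the Par libraries, 16.8, 9.43 and 5.44 CPM in LM2 and 29.7, 5.43 and 10.7 CPM in BrM2. The libraries of a line differed by up to several times, and Par replicate 3 lay within the range of the others. With the block, ISG15 fell in LM2 by 1.59 (SE 0.42, adjusted p = 0.013) on the log2 scale in edgeR, while in BrM2 the value was -1.09 (adjusted p = 0.059). UBE2L6 and USP18 passed in neither comparison with Par. HERC5 fell in BrM2 by 0.46 (SE 0.16, adjusted p = 0.041) with the block in edgeR. HERC6 (chromosome 4 from 88378852 to 88443097), next to HERC5 on chromosome 4, stood at 20.9, 20.2 and 19.8 CPM in the Par libraries, 13.7, 18.4 and 17.2 CPM in LM2 and 5.39, 8.65 and 8.29 CPM in BrM2. The 3 lines did not overlap for HERC6, and BrM2 was set apart more than LM2 was. Its log2 fold change was -1.44 (SE 0.24, adjusted p = 0.0042) in BrM2 and -0.30 (SE 0.23, adjusted p = 0.56) in LM2 in edgeR.

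Other members are ubiquitin ligases and the poly(ADP-ribose) polymerases that work with them. TRIM22 passed in LM2 with the block, by -0.76 (SE 0.19, adjusted p = 0.011) in edgeR, and TRIM21, an intracellular antibody receptor, passed in neither comparison. PARP12, which modifies proteins at stress granules and the Golgi, lies on chromosome 7 from 140023749 to 140062951 and stood at 75.3, 52.7 and 53.6 CPM in the Par libraries, 39.8, 23.3 and 20.1 CPM in LM2 and 39.9, 31.7 and 33.7 CPM in BrM2. Both sub-populations were below Par without overlap. Its log2 fold change was -1.13 (SE 0.29, adjusted p = 0.045) in LM2 in edgeR, and in BrM2 -0.79 (SE 0.29, adjusted p = 0.12) without and -0.77 (SE 0.14, adjusted p = 0.0016) with the block. The LM2 call of PARP12 was kept only without LM2 replicate 1 or BrM2 replicate 1, among the 9 omissions, over which the log2 fold change ran from -1.48 to -0.94. Relative log expression factors, another filter and the fit of LM2 and Par alone also lost this call, which was kept in 9 of 21 alternative settings. PARP9 and DTX3L form a complex, and with the block both fell in BrM2, by 1.03 (SE 0.15, adjusted p = 0.00036) and 0.58 (SE 0.14, adjusted p = 0.0055) in edgeR. In LM2, PARP9 changed by -0.49 (SE 0.15, adjusted p = 0.026), while DTX3L, which has the ISRE core in common with it, changed by 0.05 (adjusted p = 0.78), with the block in edgeR. They also overlap by 139 exon bases on opposite strands. PARP14 passed with the block in BrM2 only, by -0.77 (SE 0.15, adjusted p = 0.0024) in edgeR.

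Of 3 sensors of viral RNA tested, IFIH1 fell in BrM2 without the block, and IFIH1 and DDX60 fell in both sub-populations with it. IFIH1 (MDA5, chromosome 2 from 162267074 to 162318684), which binds long double-stranded RNA, stood at 8.88, 9.49 and 10.3 CPM in the Par libraries, 4.22, 7.92 and 6.93 CPM in LM2 and 1.85, 4.33 and 3.69 CPM in BrM2. Both sub-populations were below Par without overlap. The log2 fold change of IFIH1 was -1.52 (SE 0.35, adjusted p = 0.021) in BrM2 and -0.58 (SE 0.34, adjusted p = 0.41) in LM2 without the block, and -0.63 (SE 0.20, adjusted p = 0.034) in LM2 with it, in edgeR. Without Par replicate 2, Par replicate 3 or BrM2 replicate 3 the BrM2 call of IFIH1 was lost, with log2 fold changes from -1.77 to -1.25 over the 9 omissions. DDX60, a helicase that assists these sensors, stood at 11.8, 28.5 and 32.5 CPM in the Par libraries, 4.72, 17.1 and 18.4 CPM in LM2 and 1.77, 10.2 and 7.81 CPM in BrM2. BrM2 was below Par without overlap and replicate 1 was lowest in each line. With the block its log2 fold change was -0.95 (SE 0.20, adjusted p = 0.0037) in LM2 and -2.0 (SE 0.21, adjusted p = 3.1e-05) in BrM2 in edgeR. DDX58 (RIG-I), which binds the ends of short viral RNA, overlapped in all lines, at 69.9 ± 24.2 CPM (SD, n = 3) in Par, 57.1 ± 22.7 in LM2 and 67 ± 32.1 in BrM2, and passed in neither model. SAMD9 and SAMD9L, neighbors on chromosome 7 that restrict poxviruses, gave -1.13 (SE 0.28, adjusted p = 0.0073) and -1.97 (SE 0.20, adjusted p = 2.5e-05) in BrM2 with the block in edgeR, and in LM2 SAMD9L alone passed, by -0.77 (SE 0.19, adjusted p = 0.0084).

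Of the transcription factors, STAT2, a subunit of the complex that binds the ISRE, stood at 67.9, 77.5 and 96.5 CPM in the Par libraries, 61.4, 55.2 and 59 CPM in LM2 and 44.4, 45.4 and 46.3 CPM in BrM2. The 3 lines did not overlap, in the order Par, LM2, BrM2. STAT2 (chromosome 12 from 56341597 to 56360107) changed by -0.83 (SE 0.18, adjusted p = 0.017) in BrM2, and in LM2 by -0.46 (SE 0.18, adjusted p = 0.18) without and -0.45 (SE 0.13, adjusted p = 0.02) with the block, in edgeR on the log2 scale. The BrM2 call was lost without Par replicate 2 or 3 or without BrM2 replicate 2 or 3, with log2 fold changes from -0.94 to -0.68 over the 9 omissions. Its partner IRF9 failed the filter, with 23, 23 and 37 counts in Par, 7, 14 and 25 in LM2 and 9, 24 and 17 in BrM2, and its LM2 and BrM2 libraries lay below Par on the CPM scale. IRF1, which responds to type II interferon, fell in BrM2 with the block by 0.46 (SE 0.15, adjusted p = 0.03) in edgeR, while in LM2 its log2 fold change was 0.32 (adjusted p = 0.11). IRF1 overlaps C5orf56 on the opposite strand, and its value is uncertain to that extent. IRF7, the factor that amplifies interferon production, ranged from 3.38 to 6.0 CPM in Par, 1.72 to 4.37 CPM in LM2 and 3.53 to 13.1 CPM in BrM2, and passed in neither comparison with Par. SP100, a nuclear body protein, had log2 fold changes of 0.13 in LM2 and -0.04 in BrM2 and did not pass.

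The metastatic sub-populations were then compared directly, because a call against Par in 1 of them says nothing about the difference between both. From LM2 to BrM2, 1 of the 47 genes was lower and none higher at an adjusted p under 0.05 in edgeR, against 3.99% lower and 4.11% higher (8.1% in either direction) among all tested genes. At an unadjusted p under 0.05, 3 were higher (10.5% of all), and the median log2 fold change of the 47 was -0.17 (-0.03 over all). The gene was HERC6, with -1.14 (SE 0.23, adjusted p = 0.018). Its call was lost without LM2 replicate 2, LM2 replicate 3 or BrM2 replicate 3, where the log2 fold change over the 9 omissions ran from -1.27 to -0.95. With the block, 18 genes were lower and 7 higher in BrM2 than in LM2, where the background was 19.7% and 17.8% (37.5% in either direction), so that the share of higher genes (14.9%) was below its background.

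The genes higher in BrM2 than in LM2 in the blocked edgeR model included MX1, by 1.08 (SE 0.17, adjusted p = 0.00071), and IRF7, by 1.27 (SE 0.33, adjusted p = 0.012). TRIM22 was higher by 0.81 (SE 0.19, adjusted p = 0.0081), IFIT5 by 0.71 (SE 0.19, adjusted p = 0.014), and IFIT2 by 0.57 (SE 0.16, adjusted p = 0.02). BST2 with 0.63 (SE 0.21, adjusted p = 0.034) and UBE2L6 with 0.50 (SE 0.17, adjusted p = 0.04) completed the 7. MX1 was the only one of these whose LM2 and BrM2 libraries did not overlap. Every BrM2 library lay above every LM2 library for 2 of the 47 genes (4.26%), against 11.4% of all tested genes. For BST2 and IFIT2 both sub-populations were below Par, and LM2 was the lower.

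Lower in BrM2 than in LM2 with the block were the sensors IFIH1, by -0.94 (SE 0.22, adjusted p = 0.0069), and DDX60, by -1.05 (SE 0.21, adjusted p = 0.003), in edgeR. The factors STAT2 and IRF1 changed by -0.37 (SE 0.13, adjusted p = 0.046) and -0.78 (SE 0.15, adjusted p = 0.0024). OASL gave -0.82 (SE 0.20, adjusted p = 0.0088), GBP2 -0.75 (SE 0.15, adjusted p = 0.0029) and GBP3 -0.85 (SE 0.21, adjusted p = 0.0096). DTX3L, PARP9 and PARP14, which lie together on chromosome 3, gave -0.64 (SE 0.13, adjusted p = 0.0043), -0.54 (SE 0.15, adjusted p = 0.019) and -0.48 (SE 0.15, adjusted p = 0.032). SAMD9 and SAMD9L changed by -1.12 (SE 0.27, adjusted p = 0.009) and -1.19 (SE 0.20, adjusted p = 0.0011), and PLSCR1 by -0.50 (SE 0.12, adjusted p = 0.0098). Of the mixed group, IFI27 changed by -1.45 (SE 0.31, adjusted p = 0.0047), EPSTI1 by -1.10 (SE 0.23, adjusted p = 0.0041), IFI44 by -0.94 (SE 0.26, adjusted p = 0.016) and IFI16 by -0.60 (SE 0.16, adjusted p = 0.014). HERC6, the 18th, gave -1.14 (SE 0.17, adjusted p = 0.00051) in this model. The libraries of BrM2 and LM2 did not overlap for GBP2, STAT2, DTX3L, EPSTI1 and HERC6. Every BrM2 library lay below every LM2 library for 6 of the 47 genes (12.8%), near the 11.7% of all tested genes. Of the 47 genes, EPSTI1 alone passed as higher in LM2 than in both other lines, with the block.

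The wider interferon pathway was examined on a list of 55 ligands, receptors, kinases, adaptors and regulators, of which 29 passed the filter. All 21 interferon genes had at most 2 counts in every library, under the floor of 3, so that no interferon transcript was detectable at this depth. Without the block, 2 of the 29 (6.9%) were lower in each sub-population than in Par, against 4.52% of all tested genes in LM2 and 7.02% in BrM2, and none was higher. The share in BrM2 was thus at its background. The receptor genes IFNAR2 and IL10RB failed the filter. IFNAR2 had 5, 2 and 10 counts in Par, 3, 4 and 2 in LM2 and 1, 3 and 1 in BrM2. IL10RB had 14, 18 and 14 counts in Par, 4, 11 and 7 in LM2 and 1, 2 and 2 in BrM2. IFNGR2, the signaling chain of the type II interferon receptor and 1 of 4 receptor genes tested, stood at 49.9, 32.1 and 34.3 CPM in the Par libraries, 21.5, 15.8 and 15.6 CPM in LM2 and 19.9, 19.3 and 16.3 CPM in BrM2. Both sub-populations were below Par without overlap, by -1.14 (SE 0.24, adjusted p = 0.019) in LM2 and -1.07 (SE 0.24, adjusted p = 0.019) in BrM2 in edgeR. The LM2 call was lost without Par replicate 1, LM2 replicate 2 or LM2 replicate 3 (log2 fold change from -1.30 to -0.92 over the 9 omissions), and the BrM2 call without Par replicate 1, BrM2 replicate 2 or BrM2 replicate 3 (-1.19 to -0.84). PTPN6, a phosphatase that dampens cytokine receptors, stood at 4.15, 4.69 and 4.4 CPM in the Par libraries, 1.89, 1.1 and 1.46 CPM in LM2 and 0.295, 0.309 and 0.671 CPM in BrM2. It reached the filter in Par alone, so that a fall from Par was favored by its inclusion, and its libraries held 27 to 38 counts in LM2 and 4 to 14 in BrM2. The lines did not overlap, and the log2 fold change was -1.58 (SE 0.33, adjusted p = 0.019) in LM2, -3.33 (SE 0.38, adjusted p = 0.00061) in BrM2 and -1.76 (SE 0.38, adjusted p = 0.022) in BrM2 vs LM2 in edgeR. Without a filter these values were -1.56 (adjusted p = 0.011), -3.33 (adjusted p = 1.5e-06) and -1.77 (adjusted p = 0.014) in edgeR. The LM2 call was lost without Par replicate 2 or 3 or LM2 replicate 2 or 3 (-1.78 to -1.40), and that of BrM2 vs LM2 without LM2 replicate 3 or BrM2 replicate 1 or 2 (-2.26 to -1.55).

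With the block, 5 pathway genes (17.2%) were lower and none higher in LM2, and 7 (24.1%) lower and 3 (10.3%) higher in BrM2, where 19.1% of all tested genes were lower in LM2 and 23.2% lower and 19.5% higher in BrM2. The shares of lower genes were thus near their background and that of higher genes was below it. Of the 11 sensors and adaptors tested, 3 (27.3%) were lower in LM2 and 5 (45.5%) in BrM2. DHX58 (LGP2), the regulator of the RNA sensors, changed by -0.81 (SE 0.26, adjusted p = 0.035) in LM2 and -1.42 (SE 0.28, adjusted p = 0.002) in BrM2 in edgeR. The kinase IKBKE changed by -0.45 (SE 0.13, adjusted p = 0.02) and -0.87 (SE 0.13, adjusted p = 0.00039), and the adaptor TICAM1 (TRIF) by -0.86 (SE 0.29, adjusted p = 0.041) and -0.96 (SE 0.30, adjusted p = 0.025). In BrM2 the kinase TBK1 gave -0.75 (SE 0.22, adjusted p = 0.017) and the adaptor MYD88 -0.62 (SE 0.13, adjusted p = 0.0028). Of the 5 kinases and STATs tested, none was lower in any comparison, and STAT3 rose in BrM2 by 0.62 (SE 0.11, adjusted p = 0.0013). The phosphatase PTPN2 also rose in BrM2, by 1.04 (SE 0.11, adjusted p = 4.1e-05) with the block in edgeR. The third gene called as higher, the nuclease subunit RNASEH2A with 1.0 (SE 0.31, adjusted p = 0.024), had 14 to 19 counts in Par and reached the filter in BrM2 alone, so that it was not read as a rise, and without a filter and block its adjusted p was 0.25 in edgeR. These upstream genes thus moved in both directions in BrM2, and the part of any of them in the levels of the 47 genes was not tested.

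In BrM2 vs LM2, PTPN6 alone of the 29 pathway genes (3.45%) passed without the block, against 8.1% of all tested genes. With it 8 (27.6%) were lower and 5 (17.2%) higher, against 19.7% and 17.8%. Lower in BrM2, besides PTPN6, were the adaptors MAVS with -0.49 (SE 0.11, adjusted p = 0.005), MYD88 with -0.70 (SE 0.13, adjusted p = 0.0018) and TRAF3 with -0.42 (SE 0.15, adjusted p = 0.043) in edgeR. The kinases TBK1 and IKBKE gave -0.60 (SE 0.21, adjusted p = 0.046) and -0.42 (SE 0.13, adjusted p = 0.03), and the regulators PIAS1 and ADAR -0.48 (SE 0.14, adjusted p = 0.019) and -0.34 (SE 0.12, adjusted p = 0.048). Higher in BrM2 were PTPN2 with 0.79 (SE 0.11, adjusted p = 0.00037), SOCS3, a feedback inhibitor, with 0.53 (SE 0.16, adjusted p = 0.028), and the repressor IRF2 with 0.46 (SE 0.13, adjusted p = 0.015). The DNA sensor CGAS gave 0.42 (SE 0.12, adjusted p = 0.017) and STAT3 0.32 (SE 0.11, adjusted p = 0.044). Both directions were thus present here too.

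Replicate 1 of each line stood apart in a way that touches many of the 47 genes. Averaged over the lines, its log2 CPM minus the mean of replicates 2 and 3 ran from -2.30 for SAMD9 to 1.39 for OASL, with a median of -0.32 (0.01 over all tested genes), and 27 of 47 were below 0. Across the 47 genes this deviation had a Spearman correlation of 0.88 with the GC content of the transcripts, and of 0.82 across 12989 tested genes. The points share the same 9 libraries, and genes are not independent replicates. The log2 fold change in the comparisons was less related to GC content, with Spearman correlations across the 47 genes of -0.11 for LM2 against Par, 0.19 for BrM2 against Par and 0.38 for BrM2 against LM2. Of genes that passed without the block, IFIT1 deviated by -0.04, GBP2 by -0.32, BST2 by 0.48, IFIH1 by -0.67 and IFI27 by 1.05. Of those that passed only with it, DDX60, SAMD9L and SAMD9 deviated by -1.84, -2.10 and -2.30, but EPSTI1 by -0.36 and MX2 by 0.37. The size of the deviation thus did not separate these groups.

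**Figure D5:**
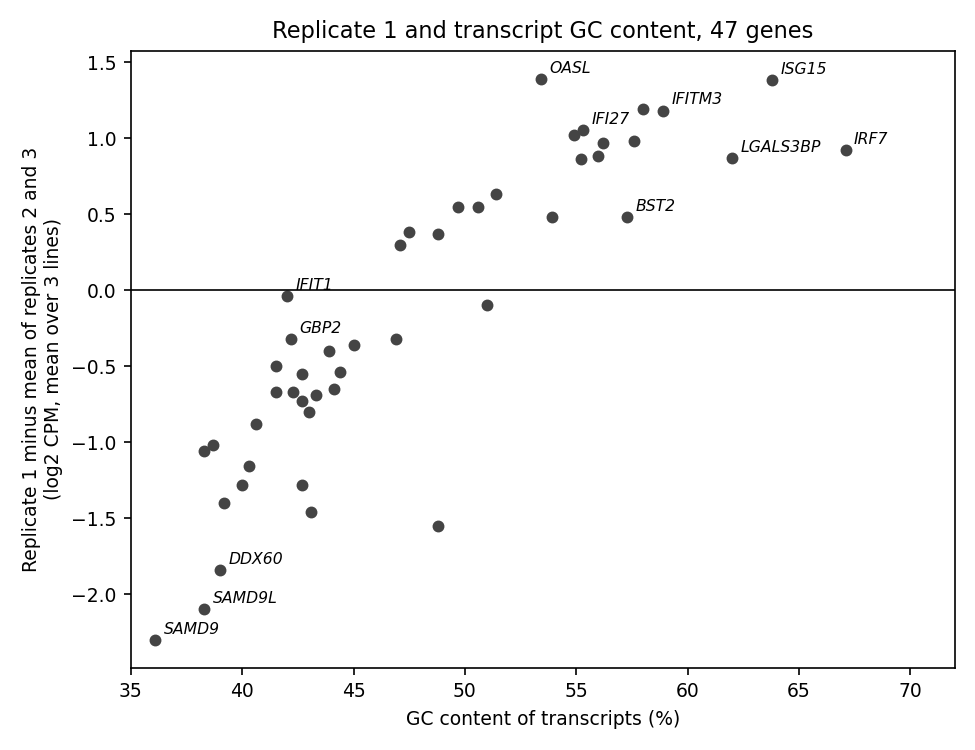
Deviation of replicate 1 from replicates 2 and 3, as log2 CPM averaged over the 3 lines, against the GC content of the transcripts in percent, with 1 point for each of the 47 genes. Genes of low GC content such as SAMD9 lie below 0 and genes of high GC content such as ISG15 above 0, with a Spearman correlation of 0.88.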

How the data were processed

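RNA-seq of the breast cancer line MDA-MB-231 (Par) and of its sub-populations LM2 and BrM2 was used, with 3 biological replicates per line. The authors prepared stranded mRNA libraries, mapped paired reads to hg38 with STAR 2.7.0 (CASAVA 1.8.2 is also named in the submitters' processing notes) and deposited raw counts per gene; the strand that was counted is not given in the sources used here, so overlap with genes on the opposite strand is stated where it occurs. A second deposited table, with the authors' DESeq2 log2 fold changes and adjusted p-values, was not used.

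The count table had 58887 rows. Of 3 identifiers listed on 2 rows with identical counts, 1 row was kept, which left 58884 genes. Genes were kept when their highest normalized count was above 47.15, the value at which replicates had the highest smoothed Jaccard index, in the manner of HTSFilter (100 values from 1 to 200, loess span 0.3). The 13055 genes kept hold 99.64% to 99.78% of each library. Totals of 14371858 to 24511786 counts per library set the precision, and 3 counts were taken as the floor. The floor covers counting error only. The lines were compared in edgeR 4.0.16 (R 4.3.3) with the 2-sided quasi-likelihood test, TMM normalization, all 9 libraries and no other term, with Benjamini-Hochberg adjustment over all genes kept and a threshold of 0.05. The standard error was derived from the test statistic. P-values measure the spread between passages of 1 culture lineage per line.

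Same-numbered libraries were checked for pairing by correlating their deviations from the line means across genes. The correlation was 0.23 to 0.90 in all 9 pairs, and the number was used as a block on that ground. Mainly replicate 1 was set apart, with 0.83 to 0.90 among its libraries and -0.88 to -0.34 with the others. For replicates 2 and 3 the correlation was 0.23 to 0.81 within a number and 0.39 to 0.80 across numbers. With replicate 1 apart in each line, deviations from the mean of 3 make the other libraries correlate. The check therefore cannot show that replicates 2 and 3 pair by number. The fit of edgeR with the replicate number as a block is given where it changes a call. The block rests on these values, since the study describes replicates as different passages only. The common dispersion was 0.11 without and 0.0207 with the block. DESeq2 1.42.0, relative log expression factors, other filters, subsets of lines and omitted libraries were alternatives. The test without the block was run on simulated data for LM2 vs Par with 13055 genes, no replicate effect and a dispersion of 0.02. That dispersion is near the 0.0207 with the block but below the 0.11 of this model in the real data. The recovery given next is thus not that of the main test. Of 200 genes changed by 1 on the log2 scale it recovered 187, with 8 unchanged genes called, and of 200 changed by 2 it recovered 200, with 6.

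RPKM used the union of exons of a GRCh37 annotation, from which GC content and 50-base stretches shared between counted genes were also taken. Gene positions and promoter sequences are those of RefSeq for GRCh38.p14, matched by symbol, and no proteins were printed. A list of immune markers is not reported here. Members and lists were chosen with earlier results of these data known. The text names every member past the threshold in either model, those that failed the filter, and each pathway gene past the threshold in either model. Python 3.11.15, pandas 2.3.3, numpy 2.4.6 and matplotlib 3.10.9 were used for sequences and figures.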

Additional observations from a re-analysis of the deposited data

Results flagged for a closer look

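BrM2 and LM2 differed from each other, in the direct test of their difference, at 1 of the 47 interferon-stimulated genes and at 1 of the 29 tested genes of the wider pathway, against 8.1% of all tested genes. With the replicate number as a block, 25 of the 47 and 13 of the 29 differed, against 37.5% of all. HERC6 was lower in BrM2 than in LM2, with a log2 fold change of -1.14 (standard error, SE, 0.23, adjusted p = 0.018 in edgeR's quasi-likelihood test), and was lower in 3 of 3 replicate numbers. The call was lost without LM2 replicate 2, LM2 replicate 3 or BrM2 replicate 3 (log2 fold change -1.27 to -0.95 over the 9 omissions). PTPN6 was also lower in BrM2 than in LM2, with a log2 fold change of -1.76 (SE 0.38, adjusted p = 0.022 in edgeR), but neither line reached the filter on low counts, which PTPN6 passed through Par alone. Its call was lost without LM2 replicate 3, BrM2 replicate 1 or BrM2 replicate 2 (-2.26 to -1.55).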

How the results depend on the processing

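For genes past the threshold in either model, no log2 fold change of that comparison turned its direction under any alternative tried. For these genes, 1635 planned values kept their direction and their side of the threshold, 179 passed it newly and 94 no longer passed it. Genes that passed in neither model could change sign near 0, as IFI44 did in LM2 vs Par (0.03 without and -0.16 with the block). The number of the 47 genes past the threshold depended most on replicate number. With the replicate block it was 24 for LM2 against Par, 29 for BrM2 against Par and 25 for BrM2 against LM2, against 7, 10 and 1 without the block, and the block changed no other call than those given above. Leaving out 1 replicate number in all lines gave 0 to 22, 1 to 28 and 0 to 22 genes, where the high values came without replicate 1 and the low ones without replicate 2 and without replicate 3. Where this gave 0 genes in edgeR, 8 and 6 genes for LM2 against Par and 1 and 3 for BrM2 against LM2 had an unadjusted p under 0.05 without replicates 2 and 3, respectively. DESeq2 was not run without them. These fits have fewer samples, and any further cause was not tested. The replicate block combined with the omission of a replicate number, chosen after seeing the data, gave 16 to 27 genes (19 without replicate 1) in LM2 vs Par, 22 to 28 (25) in BrM2 vs Par and 9 to 27 (21) in BrM2 vs LM2. Omission of single libraries gave 5 to 9, 7 to 13 and 0 to 2 genes.

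DESeq2 called 11 genes for LM2 against Par and 4 for BrM2 against LM2. In the latter comparison relative log expression factors gave 2 genes, no filter gave 2, and the fit of LM2 and BrM2 alone gave 0 in edgeR, with 5 at an unadjusted p under 0.05. All other alternatives kept the counts within 1.5 times. With the shorter core (GAAA, any 2 bases and GAA), 66.1% of windows held a match, against 60.7%. Depth limits the fold of RSAD2, with 12 counts over the LM2 libraries and 5 over those of BrM2, and no test was made for CMPK2, IRF9 and IFI44L.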
